A study of Mus musculus with 3 samples.

Results

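The genes described here are 10 genes of the Hippo pathway in the mouse heart ventricle, namely the TEAD transcription factors *Tead1*, *Tead2*, *Tead3* and *Tead4*, their cofactors *Yap1* and *Wwtr1*, the kinases *Lats1* and *Lats2*, and the target genes *Ctgf* and *Cyr61*. They were taken by gene name from the deposited transcript annotation, where the 10 names mark 12 of 48626 loci. Of these 12 loci, 10 are the genes themselves and 2 are antisense transcripts that carry the names *Tead1* and *Ctgf*.

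In the Hippo pathway, a kinase cascade ends in LATS1 and LATS2, which phosphorylate the cofactors YAP and TAZ and keep them out of the nucleus. Unphosphorylated YAP and TAZ enter the nucleus and bind TEAD factors, which recognise the MCAT element found in many muscle genes, and *Ctgf* and *Cyr61* are their most widely used target genes. In the heart the pathway is known for restraining the growth of embryonic cardiomyocytes, and TEAD1 is a known activator of muscle genes.

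The study asked which transcripts are expressed in the developing ventricle, and sequenced total RNA of C57BL/6 ventricles with a stranded, paired-end protocol. The 3 stages were the embryonic days E10.5 and E13.5, named for days of gestation, and adult mice of 8 weeks, and each stage has 1 library. Neither a mutation nor a treatment is given for any stage, and the sources used here do not say how many hearts went into a library. Each value comes from a single library, so differences between stages were not checked against replicates and carry no p-value.

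Levels are FPKM, the fragments per kilobase of exon, scaled to library size, that the authors deposited. They are scaled to length, so levels of different genes in 1 library can be set side by side, within the limit of the length difference of the E13.5 library given below. Read counts were not used here, and the lowest steps of the values put 1 FPKM over 1 kb at about 26.7 fragments in the E13.5 library and 13.8 in each of the others. By this estimate a level of the 10 genes rests on about 45.0 fragments (*Tead2* in the adult) to 6799.9 fragments (*Tead1* at E10.5). A log2 change below is a difference of log2(FPKM + 1) between 2 libraries, which understates the change of low genes, and its approximate counting error was 0.03 to 0.14 for the 10 genes. The counting error does not cover variation between animals. Changes were read against 12569 mRNA loci with at least 1 FPKM in at least 1 library, a filter that all 10 genes passed, and a change was counted at 1 or more, which is 2-fold on this scale.

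The libraries differed as wholes in ways that touch these genes. The median log2 change of the 12569 loci was 0.17 from E10.5 to E13.5, -0.50 from E13.5 to the adult and -0.40 from E10.5 to the adult. The E13.5 library also differed by transcript length, with a median log2 change from E10.5 of 0.57 over the 773 loci with transcripts up to 1000 nt and of -0.46 over the 918 loci longer than 8000 nt. From E10.5 to the adult the medians of the 7 length classes lay between -0.44 and -0.37. A list of 5 cardiomyocyte markers summed to 6471, 7767 and 7235 FPKM in stage order, which is E10.5, then E13.5, then adult. *Actc1* alone was 4487, 4646 and 3353 FPKM of it. From E10.5 to the adult, 2 of the 5 were higher at the 2-fold mark, *Tnnt2* with a log2 change of 2.33 and *Ryr2* with 1.93. From E10.5 to E13.5 *Ryr2* had -1.90. The 1 lower in the adult was the joined locus of *Myh6* and *Myh7*, listed at 0 there, which can be a failed estimate. In bulk tissue, fewer cells of a type and less RNA per cell cannot be told apart.

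Stretches just upstream of the start are shown for *Tead2*, whose level differed most between stages, and for the target gene *Cyr61*, to show a gene with and a gene without the TEAD recognition motif. The sequences are from RefSeq, on build GRCm38.p6, and each is written 5′ to 3′ on the strand of its gene, with a match to the motif in capitals. The *Tead2* stretch lies at chr7:45215542-45215752 on the plus strand and ends just before the first exon of the deposited locus. The *Cyr61* stretch lies at chr3:145649986-145650235 on the minus strand.
Tead2: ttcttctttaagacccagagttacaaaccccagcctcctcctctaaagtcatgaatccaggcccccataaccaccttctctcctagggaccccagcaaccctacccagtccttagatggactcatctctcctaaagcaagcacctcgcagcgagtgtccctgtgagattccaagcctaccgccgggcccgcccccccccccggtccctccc
Cyr61: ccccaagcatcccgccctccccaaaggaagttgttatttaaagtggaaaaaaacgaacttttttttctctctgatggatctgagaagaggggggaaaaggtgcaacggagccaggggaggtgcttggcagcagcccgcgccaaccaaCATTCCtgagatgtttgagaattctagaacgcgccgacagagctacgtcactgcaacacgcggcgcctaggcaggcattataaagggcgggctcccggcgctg

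The motif searched was CATTCC, the core of the MCAT element, on either strand, where the other strand reads GGAATG. The windows were 300 bases long, from 250 bases before to 50 bases after each RefSeq start, and 7 of the 10 genes matched an entry (all but *Tead1*, *Tead4* and *Ctgf*), with 11 windows in all. The motif was present for 5 of the 7 genes, in 7 of the 11 windows, some of which overlap, and in 14.7% of the 32851 windows of all genes, or for 16.6% of 27025 genes. In the *Cyr61* window the match began 103 bases before the start. Matches also began 141 bases before a start of *Yap1* and 182 and 123 bases before 2 starts of *Tead3*, while the match of *Lats2* lay after its start. For *Wwtr1* the same match began 136 and 170 bases before 2 starts, whose windows overlap. The windows of *Tead2* and *Lats1* held no match. A match describes the letters of the window and is not a measured binding site.

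Among the 4 TEAD genes, *Tead2* and *Tead1* had log2 changes past 1 between stages and *Tead3* and *Tead4* had none as deposited. *Tead2* was the highest of the 10 genes in both embryonic libraries and next to the lowest in the adult, while *Tead1* was lowest at E13.5 and was the most abundant TEAD gene only in the adult. *Tead3* and *Tead4* were low at all 3 stages. The bar plot of levels by stage shows these orders.

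**Figure D1:**
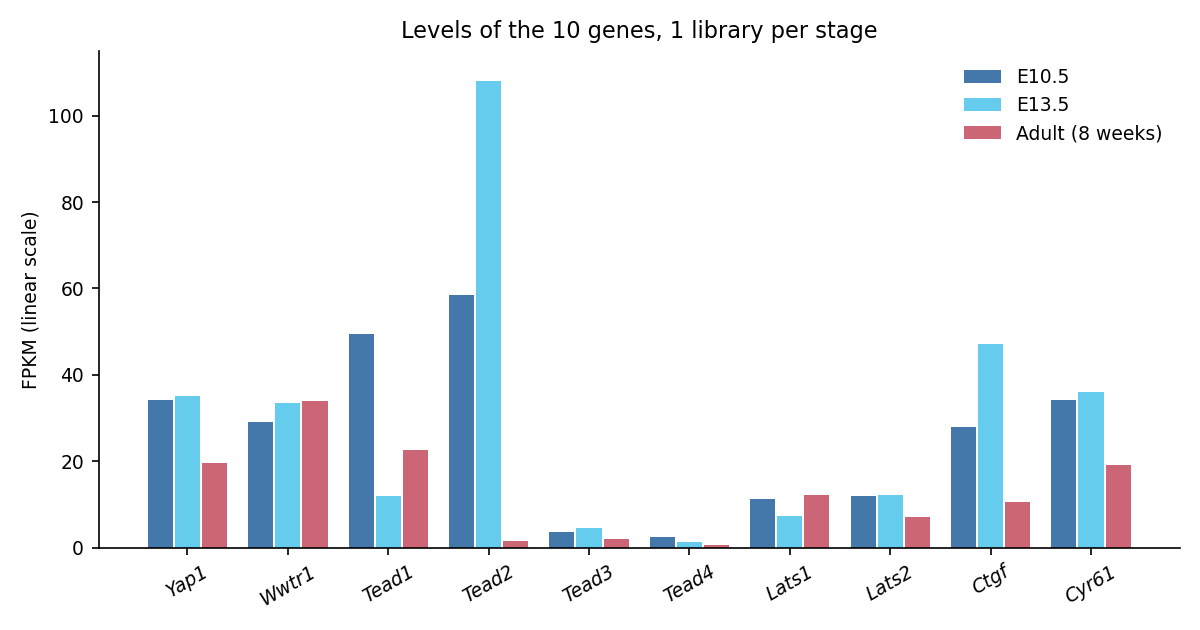
FPKM (linear axis from 0) of the 10 genes in the single libraries of E10.5, E13.5 and the adult, 1 bar per library, with no error bars since there are no replicates. *Tead2* stands at 58.4 and 108 FPKM in the embryonic libraries and at 1.54 FPKM in the adult, whereas *Wwtr1* lies between 29.1 and 34.0 FPKM in all 3.

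*Tead2* encodes the TEAD factor best known from early embryos. It lies at chr7:45215753-45233891 on the plus strand (GRCm38, which is mm10), and the deposited locus has 3 transcripts, 1 of which matches a RefSeq transcript, of 2115 nt. *Tead2* was at 58.4 FPKM at E10.5, 108 FPKM at E13.5, then 1.54 FPKM in the adult. The embryonic libraries were both far above the adult one, with the E13.5 library the higher. The adult level was 70.0-fold lower than that of E13.5 and 37.8-fold lower than that of E10.5, log2 changes of -5.42 and -4.55. Among the 12569 loci, 0.501% had a lower change from E13.5 to the adult and 0.724% a lower change from E10.5. Relative to the median of all loci, *Tead2* had -4.15 from E10.5 to the adult, and the change as such lay between -5.15 and -4.24 under the other scalings and a smaller pseudocount of 0.1. With length classes set equal, the change between E13.5 and the adult was -4.77. In level, *Tead2* went from above 91.8% of the loci at E10.5 and 94.98% at E13.5 to above 16.4% in the adult.

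Between the embryonic stages *Tead2* was 1.85-fold higher at E13.5, a log2 change of 0.88 that lies under the 2-fold mark. It exceeded the change of 91.8% of all loci and 90.6% of the loci of its length class (2001 to 3000 nt), whose median was 0.30. The higher level at E13.5 and the higher values of short transcripts in that library moved together, and the part of length in the result was not tested. Set to the median of its length class in each library, the *Tead2* change was 0.53.

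*Tead1* encodes the TEAD factor with the best known role in heart muscle. It lies at chr7:112679320-112906917 on the plus strand, and the deposited locus has 11 transcripts from 6 starts, 3 of which match RefSeq transcripts, the longest of 9962 nt. *Tead1* was at 49.5 FPKM at E10.5, 11.9 FPKM at E13.5, then 22.7 FPKM in the adult. The E13.5 library was the lowest and E10.5 the highest. The level was 4.15-fold lower at E13.5 than at E10.5, a log2 change of -1.97, and only 0.278% of the 12569 loci had a lower change. *Tead1* has a long transcript, and within its own length class (8001 nt and longer) the change minus the class median was -1.51, with 1.09% of loci lower. The part of length in the lower E13.5 value was not tested. Set to the median of the length class in each library, the log2 change was -1.47.

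Between E13.5 and the adult the log2 change of *Tead1* was 0.88, above that of 85.1% of all loci, and between E10.5 and the adult it was -1.09, with 24.3% of loci lower. The latter change was -0.69 relative to the median of all loci, and it was under the 2-fold mark in size in each of the 3 rescalings (-0.69 to -0.67) and after setting length classes equal (-0.64). The former was past the mark in the 3 rescalings (1.41 to 1.69) and not with length classes set equal (0.83). The change of *Tead1* that was past 2-fold under each of these alternatives was thus the one between the embryonic libraries.

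*Tead3* lies at chr17:28330075-28350805 on the minus strand, with 12 deposited transcripts, and encodes a TEAD factor best known from placenta. It was at 3.72, 4.597 and 2.14 FPKM in stage order. The log2 changes were 0.24 from E10.5 to E13.5, -0.84 from E13.5 to the adult and -0.59 from E10.5 to the adult, so none reached the mark on this scale, and the first was negative under 3 of the 5 alternatives. The levels of E13.5 and the adult differed 2.15-fold, and with the smaller pseudocount that change was -1.07, which made *Tead3* the third of the 10 genes past the mark in that comparison.

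*Tead4* lies at chr6:128223927-128300813 on the minus strand, with 7 deposited transcripts, and encodes the TEAD factor that the trophectoderm of the early embryo needs. It was at 2.47, 1.41 and 0.743 FPKM in the same order of stages, the lowest of the 10 genes in every library. Its log2 change between E10.5 and the adult was -0.99, just inside the 2-fold mark, and -1.61 with the smaller pseudocount, and the levels themselves differed 3.33-fold. *Tead4* rested on about 64.5 fragments in the adult.

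The shares of the 4 TEAD genes within a library do not depend on the scaling between libraries. At E10.5 *Tead2* held 51.2% and *Tead1* 43.4% of the summed TEAD level, and *Tead3* and *Tead4* held 3.26% and 2.17%. At E13.5 *Tead2* held 85.8% and *Tead1* 9.45%. In the adult *Tead1* held 83.7%, *Tead3* 7.87%, *Tead2* 5.69% and *Tead4* 2.74%. The leading TEAD gene thus was *Tead2* in both embryonic libraries and *Tead1* in the adult one. The ratio of *Tead1* to *Tead2* was 0.847 at E10.5, 0.110 at E13.5, then 14.7 in the adult. With length classes set equal, the E13.5 shares were 16.1% for *Tead1* and 79.0% for *Tead2*, so the order of the pair stayed.

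**Figure D2:**
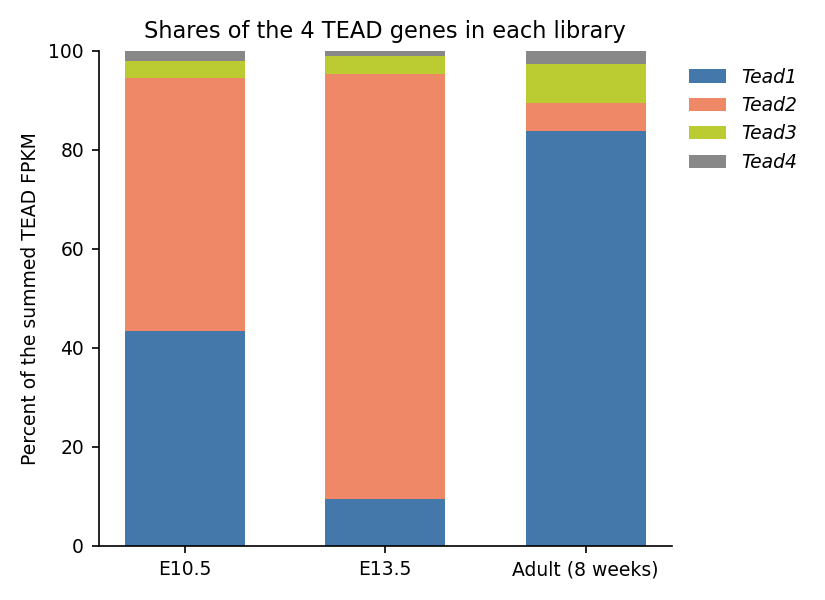
Percent of the summed TEAD FPKM held by *Tead1*, *Tead2*, *Tead3* and *Tead4* (stacked parts of a bar) in the single library of each stage. *Tead2* holds 51.2%, 85.8% and 5.69% in stage order, and *Tead1* 43.4%, 9.45% and 83.7%.

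The summed TEAD level was 114 FPKM at E10.5, 126 FPKM at E13.5, then 27.1 FPKM in the adult. Without *Tead2* the sums were 55.7, 17.9 and 25.6 FPKM, with E13.5 lowest, as it also was in the 3 rescalings (13.3 to 15.0 FPKM) and with length classes set equal (22.6 FPKM). With *Tead2*, the embryonic order depended on the scaling, since E13.5 was at 93.4 to 105.6 FPKM in the rescalings beside 106.6 to 113.8 FPKM for E10.5, and at 107.4 FPKM beside 114 FPKM with length classes set equal. The lower adult sum as a whole was thus mostly the lower *Tead2* level.

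The cofactor genes differed less between stages than *Tead1* and *Tead2*. *Yap1* encodes YAP and lies at chr9:7931916-8004596 on the minus strand, with 5 deposited transcripts. It was at 34.1, 35.2 and 19.5 FPKM in stage order. As deposited, both embryonic levels were alike and above the adult one. In both rescalings to equal sums the log2 change was -0.36 and -0.37 from E10.5 to E13.5, and -0.01 and 0.02 from E13.5 to the adult. The log2 change between E10.5 and the adult was -0.77, or -0.38 relative to the median of all loci, with 35.3% of loci lower.

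*Wwtr1* encodes TAZ, the paralog of YAP, and lies at chr3:57455644-57575910 on the minus strand, with 2 deposited transcripts. It was at 29.1, 33.5 and 34.0 FPKM in the same order of stages. *Wwtr1* was the highest of the 10 genes in the adult library and had 4 of them above it in both embryonic ones. Its log2 change between E10.5 and the adult was 0.22, above that of 71.0% of the loci, and 0.62 relative to their median.

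Within a library, the ratio of *Yap1* to *Wwtr1* was 1.17 at E10.5, 1.05 at E13.5, then 0.573 in the adult. *Yap1* was thus the higher of the pair in the embryonic libraries and *Wwtr1* in the adult library. This order does not depend on the scaling between libraries, and with 1 library per stage its spread between animals is unknown. The summed level of both cofactors was 63.2, 68.7 and 53.5 FPKM. The summed TEAD level was 1.80 and 1.83 times that of the cofactors at E10.5 and E13.5 and 0.507 times in the adult. For *Tead1* alone the ratio to the cofactors was 0.783, 0.173 and 0.424.

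*Lats1* and *Lats2* encode the kinases that act directly on YAP and TAZ. *Lats1*, at chr10:7681209-7716652 on the plus strand with 7 deposited transcripts, was at 11.3, 7.35 and 12.2 FPKM in stage order. *Lats2*, at chr14:57688206-57746179 on the minus strand with 3 deposited transcripts, was at 12.0, 12.2 and 7.03 FPKM. As deposited, the genes thus had different low points, E13.5 for *Lats1* and the adult for *Lats2*. The low point of *Lats2* depended on the scaling. In both rescalings to equal sums its log2 change was -0.35 and -0.36 from E10.5 to E13.5, and 0.03 and 0.06 from E13.5 to the adult. The ratio of *Lats1* to *Lats2* was 0.940 at E10.5, 0.600 at E13.5, then 1.74 in the adult, and their sum was 23.3, 19.6 and 19.3 FPKM. None of the log2 changes of the pair reached 2-fold as deposited. The largest for *Lats1* was 0.66, between E13.5 and the adult. This change was 1.18 to 1.44 in the 3 rescalings and 0.91 with length classes set equal. *Lats1*, whose longest matched transcript is 7215 nt, had a log2 change of -0.56 from E10.5 to E13.5, which was -0.33 with length classes set equal, and the part of length in it was not tested. *Lats2* had -0.70 from E10.5 to the adult, or -0.30 relative to the median of all loci.

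*Ctgf* and *Cyr61* encode secreted matricellular proteins of the CCN family. *Ctgf*, at chr10:24595442-24598682 on the plus strand with a single deposited transcript of 2402 nt, was at 27.9, 47.2 and 10.7 FPKM in stage order. The E13.5 library was highest and the adult lowest. *Ctgf* was 4.41-fold lower in the adult than at E13.5, a log2 change of -2.04 with 9.40% of loci lower. Against E10.5 the adult level was 2.61-fold lower, a log2 change of -1.30, or -0.91 relative to the median of all loci. The latter was short of the 2-fold mark in the 3 rescalings (-0.92 to -0.90) and with length classes set equal (-0.87), while the former stayed past it (from -1.503 to -1.22). From E10.5 to E13.5 the log2 change was 0.74, and 0.40 with length classes set equal, where the part of length was not tested.

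*Cyr61*, at chr3:145645776-145649985 on the minus strand with 5 deposited transcripts, was at 34.3, 36.0 and 19.2 FPKM. Its levels were close to those of *Yap1* in all 3 libraries. The log2 change between E10.5 and the adult was -0.80, or -0.40 relative to the median of all loci, with 34.3% of loci lower. The ratio of *Ctgf* to *Cyr61* was 0.814 at E10.5, 1.31 at E13.5, then 0.557 in the adult. The target genes thus stood in opposite orders at E13.5 and at the other stages. With length classes set equal, the log2 ratio at E13.5 was 0.24 instead of 0.39, so the order stayed.

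Counted at the 2-fold mark, 1 of the 10 genes (*Tead1*) was lower at E13.5 than at E10.5 and 0 were higher, beside 4.85% of the 12569 loci lower and 5.89% higher. From E13.5 to the adult, 2 were lower (*Tead2* and *Ctgf*) and 0 higher, beside 32.1% lower and 13.0% higher. From E10.5 to the adult, 3 were lower (*Tead1*, *Tead2* and *Ctgf*) and 0 higher, beside 27.3% lower and 14.8% higher. The share of 30% lower among the 10 genes was thus near that of all loci. The median log2 change of the 10 genes was 0.06, -0.77 and -0.79 in these comparisons, and 6, 6 and 8 of the 10 lay below the median of all loci. The comparisons share libraries and are not independent. From E10.5 to the adult the direction of each of the 10 genes held under the 5 alternatives (a smaller pseudocount, 3 rescalings and equal length classes). From E10.5 to E13.5 it turned under at least 1 alternative for 5 genes (*Yap1*, *Wwtr1*, *Tead3*, *Lats2* and *Cyr61*), and from E13.5 to the adult for *Yap1* and *Lats2*.

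**Figure D3:**
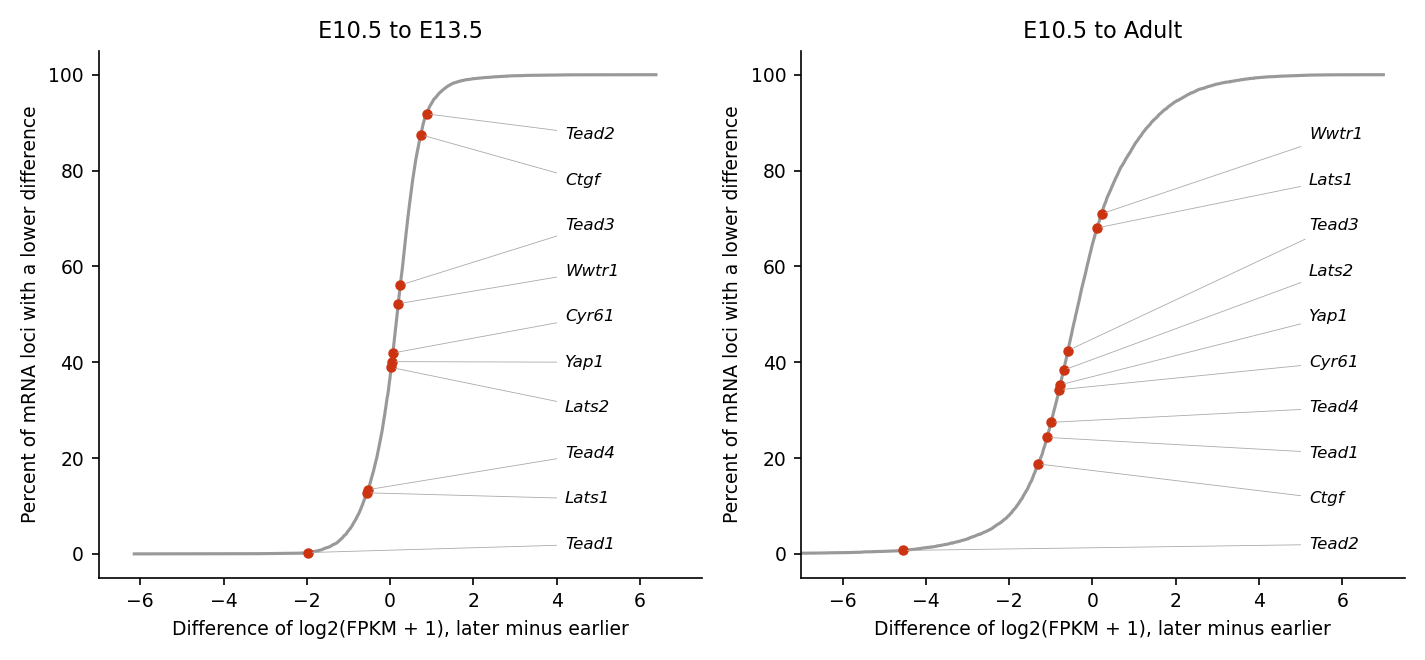
Cumulative percent of the 12569 mRNA loci (grey curve) against the log2 change from E10.5 to E13.5 (left) and from E10.5 to the adult (right), with the 10 genes as red points, 1 library per stage. *Tead1* lies at 0.278% on the left and *Tead2* at 0.724% on the right, and the other genes lie along the steep middle of the curves, between 12.8% and 91.8% on the left and between 18.8% and 71.0% on the right.

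**Figure D4:**
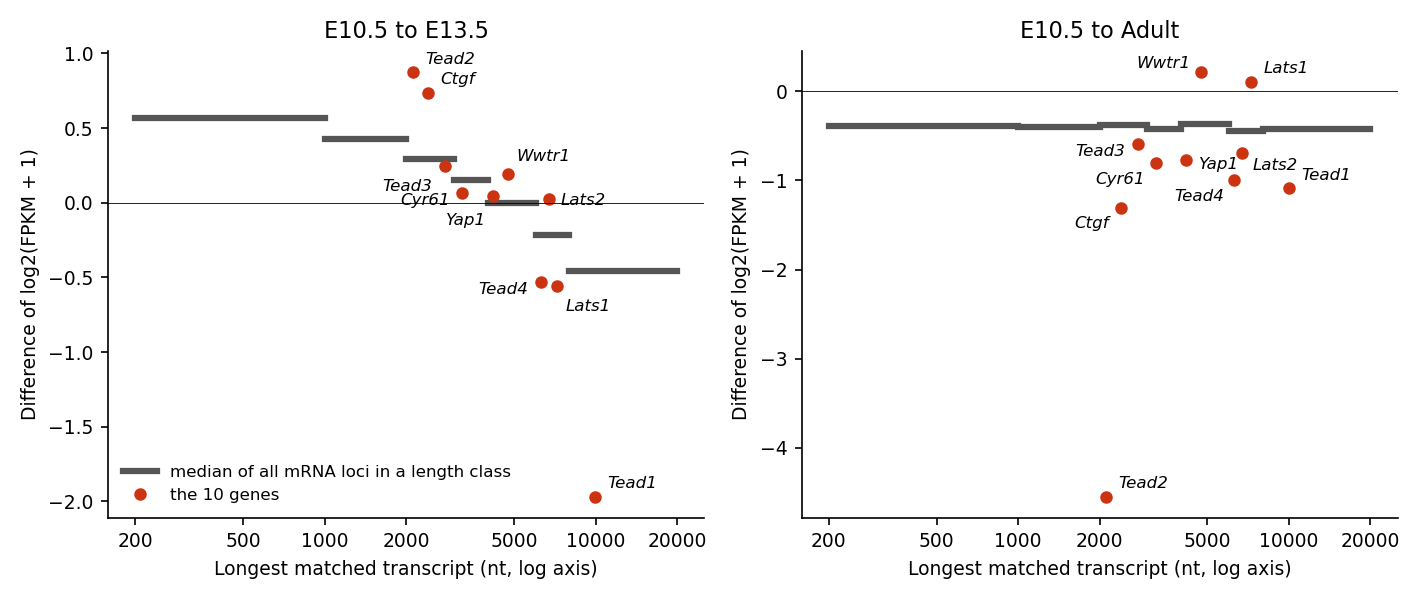
Log2 change against the longest matched transcript (log axis) from E10.5 to E13.5 (left) and from E10.5 to the adult (right), with the median of each of 7 length classes of all mRNA loci as a grey bar, the open end classes being drawn to the axis ends, and the 10 genes as red points. The class medians go from 0.57 to -0.46 on the left and lie between -0.44 and -0.37 on the right, and *Tead1* on the left and *Tead2* on the right lie far below them.

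Other genes of the pathway were described from 7 lists, with 62 genes in all (*Amotl2* and *Ptpn14* stand in 2 lists). All 62 were found, none in a locus joined to another gene, and 57 passed the filter of 1 FPKM in at least 1 library. The genes that did not pass cannot reach the 2-fold mark, but they are counted in the list totals here and below. From E10.5 to the adult 19 were lower and 5 higher at the 2-fold mark. These were 30.6% and 8.06% of the 62, beside 27.3% and 14.8% of all loci. The median log2 change of the 62 was -0.36, beside -0.40 for all loci. From E10.5 to E13.5, 4 were lower and 4 higher (6.45% each), beside 4.85% and 5.89% of all loci. From E13.5 to the adult 16 were lower and 5 higher (25.8% and 8.06%), beside 32.1% and 13.0%. The lists as a whole thus lay near the background in the lower direction. In the higher direction they lay under it in both comparisons with the adult, and this was not tested.

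Of the 9 genes of the kinase cassette upstream of LATS, 2 were lower and 0 higher from E10.5 to the adult, beside 27.3% and 14.8% of all loci. *Mob1b*, an activator of LATS kinases, was at 36.0, 10.6 and 9.48 FPKM in stage order, a log2 change of -1.82. *Stk3*, which encodes the MST2 kinase, was at 27.04, 40.4 and 9.61 FPKM, a log2 change of -1.40. The genes furthest in the other direction were the TAO kinase genes *Taok3*, with a log2 change of 0.54, and *Taok1*, with 0.11, both under the mark.

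Of the 14 upstream and junctional genes, 6 were lower and 0 higher from E10.5 to the adult, beside the same 27.3% and 14.8%. *Amot*, whose product angiomotin binds YAP at junctions, was at 16.2, 7.18 and 3.59 FPKM, a log2 change of -1.91. *Ajuba*, a LIM protein gene whose product holds back LATS and which the annotation names *Jub*, was at 10.7, 20.4 and 2.36 FPKM, a log2 change of -1.80. *Nf2*, the gene of the upstream activator Merlin, and *Frmd6* both had a log2 change of 0.43. The lower genes thus included *Ajuba*, whose product acts against LATS, and *Amot*, whose product acts against YAP.

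The 7 genes of the STRIPAK complex, a phosphatase complex that opposes the MST kinases, had a median log2 change of -0.81, with *Strn* at -0.92 and *Slmap* at 0.32. Of the 7 genes of 14-3-3 proteins, which hold phosphorylated YAP and TAZ in the cytoplasm, 5 were lower and 0 higher, with a median log2 change of -1.54. *Ywhaz* was at 83.0, 49.8 and 19.2 FPKM and *Ywhab* at 141.7, 68.1 and 34.3 FPKM, log2 changes of -2.06 and -2.02. Relative to the background of 27.3% lower, the 14-3-3 genes were the list with the largest share past the mark, and no test was made of it.

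*Vgll4*, whose product competes with YAP for TEAD, was at 21.1, 32.6 and 8.25 FPKM in stage order, a log2 change of -1.26. *Vgll3*, another TEAD cofactor gene, was at 0.326, 0.995 and 1.65 FPKM, a log2 change of 1.00 that just reached the mark. *Vgll1* was listed at 0 at every stage, and *Vgll2* did not pass 0.0851 FPKM. *Vgll4* was thus the only Vestigial-like gene above 2 FPKM in any of these libraries.

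Of the other CCN genes, *Wisp1* was at 9.83, 17.3 and 0.970 FPKM, a log2 change from E10.5 to the adult of -2.46, and *Wisp2* was at 0.166, 0.0444 and 1.498 FPKM, a log2 change of 1.10. *Nov* was at 0.266, 3.87 and 1.35 FPKM, and *Wisp3* stayed under 1 FPKM. Like *Ctgf*, both *Wisp1* and *Nov* had their highest value at E13.5.

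Among 19 other genes known as targets of YAP and TAZ, 4 were lower and 3 higher from E10.5 to the adult, beside 27.3% and 14.8% of all loci, with a median log2 change of -0.17. *Tgfb2*, a growth factor gene, was at 18.4, 19.0 and 3.21 FPKM, a log2 change of -2.20, and *Gadd45b* had -1.63. *Ankrd1*, a cardiac ankyrin repeat protein gene that cardiomyocytes express strongly, was at 213.5, 532.5 and 900.9 FPKM, a log2 change of 2.07, and *F3*, the gene of tissue factor, had 1.79. The targets thus stood on both sides, with *Ctgf* and *Cyr61* on the lower side as deposited.

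**Figure D5:**
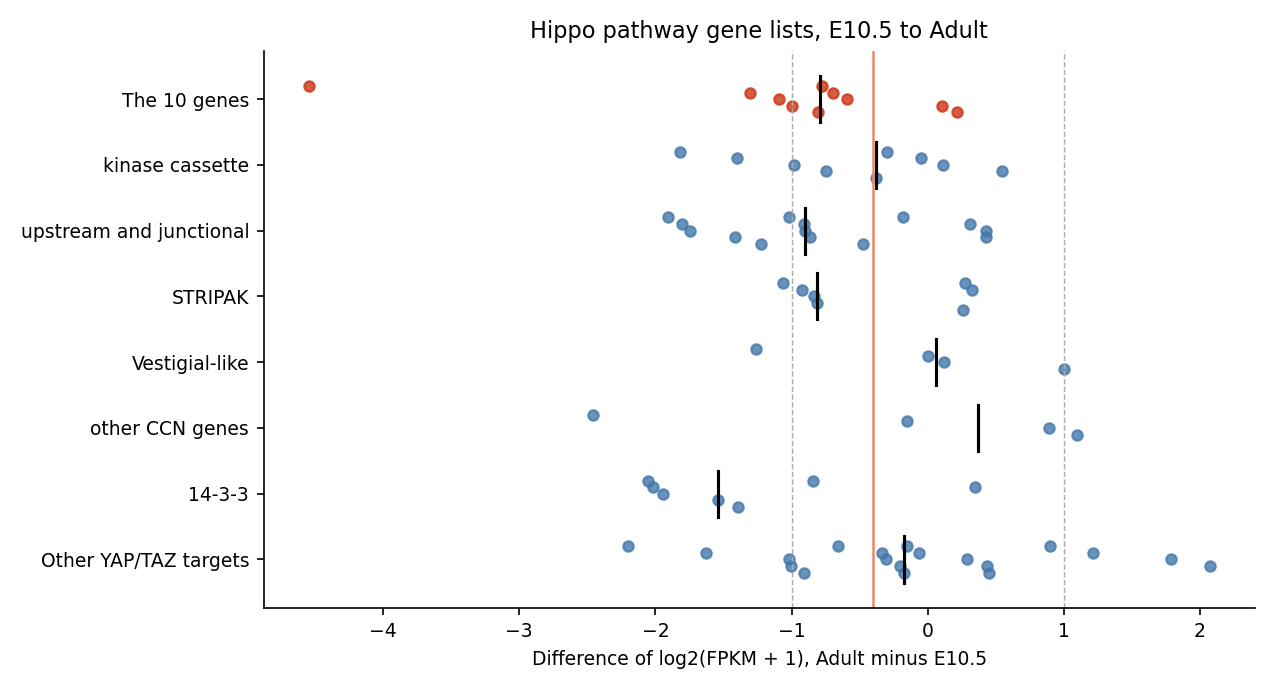
Log2 change from E10.5 to the adult of each gene (point) in the 10 genes described and in the 7 pathway lists, with the median of each list as a black bar, the 2-fold mark as dashed lines and the median of all mRNA loci (-0.40) as an orange line. *Tead2* stands furthest to the left at -4.55, the 14-3-3 genes have the lowest list median (-1.54), and *Ankrd1* stands furthest to the right at 2.07.

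Markers of several cell types and of dividing cells also differed between the libraries. The 5 genes of proliferation summed to 261, 309 and 3.44 FPKM in stage order, an order like that of *Tead2*, with all 5 lower in the adult. Epicardial markers summed to 128, 122 and 18.2 FPKM (4 of 5 lower from E10.5 to the adult) and smooth muscle markers to 1311, 1226 and 187 FPKM (3 of 4 lower). The other smooth muscle marker, *Myh11*, was at 0.112, 0.893 and 18.1 FPKM, against the direction of that sum, most of which was *Acta2*. Macrophage markers summed to 5.93, 32.9 and 122 FPKM (5 of 5 higher). Fibroblast markers summed to 121, 254 and 413 FPKM (1 of 5 lower and 1 of 5 higher from E10.5 to the adult), of which *Dcn* alone was 350.7 FPKM in the adult. From E13.5 to the adult, 4 of the 5 fibroblast markers had negative log2 changes and the median was -0.998. Endothelial markers summed to 222, 150 and 226 FPKM (0 of 5 in either direction from E10.5 to the adult). From E10.5 to E13.5, 2 of 5 were lower, *Cdh5* (-1.89) and *Kdr* (-1.21). The same 2 were higher from E13.5 to the adult (1.80 and 1.56). The part of cell composition in the levels of *Tead2*, *Ctgf* and the other genes was not tested.

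The genes with the profile nearest to a member were sought for the 3 members with the largest change from E10.5 to the adult, by the Euclidean distance between the 3 values of log2(FPKM + 1) after subtracting their mean. With 3 libraries a profile has only 3 points, so a near match describes these libraries and nothing more. For *Tead2* the nearest were *Prc1* (46.2, 82.6 and 1.24 FPKM) at a distance of 0.148 and *Cdc20* (31.6, 49.3 and 0.363 FPKM) at 0.191, and 7 loci lay within 0.25. For *Tead1* the nearest were *Egr1* (8.44, 1.55 and 3.56 FPKM) at 0.0576 and *Ppp2r2a* (34.9, 8.32 and 15.2 FPKM) at 0.0600, and 17 loci lay within 0.25. For *Ctgf* the nearest was *Samd1* at 0.0191, then the joined locus of *Cnpy4* and *Mblac1* at 0.0214, and 286 loci lay within 0.25. More loci were thus near the profile of *Ctgf* than near those of *Tead1* and *Tead2*.

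On the opposite strand, 8 loci without a protein-coding match started within 3000 bp of the start of 6 of the 10 genes, and none did so for *Tead2*, *Tead3*, *Tead4* and *Lats2*. The share of all mRNA loci with such a locus is not given here, so this count has no background beside it. Of these 8, only 3 reached 1 FPKM in any library. The antisense locus named *Ctgf*, at chr10:24595058-24595611 on the minus strand, is an unspliced transcript of 554 nt that overlaps the first bases of *Ctgf* by 170 bp, and it was at 1.59, 2.79 and 1.57 FPKM in stage order. Like *Ctgf* it was highest at E13.5, but its adult level was close to that of E10.5. Its log2 change from E10.5 to E13.5 was 0.55, beside a median of 0.57 over mRNA loci with transcripts up to 1000 nt. The part of length in it was not tested. *BC020402*, which starts 51 bp from *Lats1* at chr10:7677748-7681158 on the minus strand, was at 0.833, 2.06 and 1.59 FPKM, highest at the stage where *Lats1* was lowest. A spliced locus at chr3:145651723-145678376 on the plus strand, 1738 bp from *Cyr61*, was at 3.62, 4.25 and 0.972 FPKM, in the same order of stages as *Cyr61*. The antisense locus named *Tead1*, at chr7:112676868-112679353 on the minus strand, has 2 exons that overlap *Tead1* by 34 bp and was at 0.730, 0.625 and 0.570 FPKM. Its values were within a narrow range where *Tead1* itself had its low point at E13.5. The library kit keeps strand, but the counting options are not given in the sources used here, so the values over the small overlaps are uncertain.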

How the data were processed

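The libraries of the 3 stages, 1 each, were made with a kit for stranded total RNA. Mapping to mm10 by the authors used TopHat2 and Bowtie, and assembly used Cufflinks, run once with known transcripts and once without them. The authors deposited FPKM values per merged locus and the merged transcripts. Further tool versions, counting options and the treatment of multiply mapped fragments are not given in the sources used here. FPKM values are not read counts, so no count model was fitted.

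From these values, differences of log2(FPKM + 1) were computed as deposited and counted at 1 or more, over mRNA loci, which are those matching a protein-coding RefSeq transcript (20117) and at least 1 FPKM in 1 library or more (12569). Depth was inferred from the steps between low values at loci with a single unspliced transcript, so fragment numbers and counting errors are approximate. Members were found by gene name, and starts on the opposite strand were taken within 3000 bp. Alternatives were a pseudocount of 0.1, no filter, a threshold of 2, 3 rescalings of the libraries (median of ratios, equal sums without globin and mitochondrial loci, equal sums of all loci) and equal medians within 7 classes of transcript length.

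All 10 genes are named, and of each pathway list the up to 2 genes with the largest change each way from E10.5 to the adult, or any gene of a list of 7 or fewer. The values of 1 gene of the STRIPAK list are not reported here. The members and lists were chosen with earlier results of these data known. Calculations used Python 3.11.15 with numpy 2.4.6 and pandas 2.3.3, and the scripts were tested on simulated data.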

Additional observations from a re-analysis of the deposited data

How the results depend on the processing

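No paired analysis was possible because no stage has more than 1 library. No replicate was left out for that reason. A value was taken as moved past 1.5 times, which for a log2 change is a shift by more than that factor, whatever its sign. Equal medians within length classes and the rescaled TEAD sums were added after seeing the data. Of 126 alternative values of the counts, shares and ratios, 95 stayed and 31 moved. Of the log2 ratios 0 reversed in sign, and counts and shares cannot do so. Of 150 alternative values of single gene changes 125 stayed, 25 moved and 0 of those past 2-fold reversed. The values that stayed include small changes from E10.5 to E13.5 that turned direction, for the 5 genes named above. The turns of *Yap1* and *Lats2* from E13.5 to the adult are among those that moved. The 6 background percentages were smaller without the filter on low values. This was fixed in advance, since a locus under 1 FPKM in every library cannot reach the 2-fold mark on this scale. The cause of the other shifts was not tested.

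In each of the 3 rescalings, 1 of the 10 genes was lower from E10.5 to the adult (*Tead2*) instead of 3, and 2 were higher from E13.5 to the adult (*Tead1* and *Lats1*) instead of 0. The background moved with them, to between 18.2% and 18.5% lower and between 19.97% and 20.5% higher from E10.5 to the adult, and to between 14.5% and 18.9% lower and between 20.8% and 26.0% higher from E13.5 to the adult. With length classes set equal, 1 gene was lower from E10.5 to the adult, and the E13.5 share of *Tead1* was 16.1% instead of 9.45%. At a threshold of 2, 0 genes were lower from E10.5 to E13.5 and 1 from E10.5 to the adult. The share of all loci past that threshold is not given here, so these counts have no background beside them.

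For the 62 other pathway genes, both rescalings to equal sums gave 9 lower and 2 higher from E10.5 to E13.5 (4 and 4 as deposited), where the background went to 10.1% and 10.3% lower and 2.59% and 2.58% higher, and a pseudocount of 0.1 gave 7 lower. From E13.5 to the adult (16 lower and 5 higher) all 3 rescalings gave 10 lower, and the number higher was 9 with median of ratios, 13 with equal sums without globin and mitochondrial loci, 15 with equal sums of all loci and 10 with length classes set equal. From E10.5 to the adult (19 lower and 5 higher) equal sums of all loci and equal length classes each gave 12 lower, and the smaller pseudocount gave 8 higher. A threshold of 2 left 0 lower and 0 higher from E10.5 to E13.5 and 8 lower and 0 higher from E13.5 to the adult. From E10.5 to the adult it left 4 lower and 1 higher. These counts also have no share of all loci at that threshold beside them.

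With 1 library per stage, the variation between animals is unknown for every value. Low levels, such as those of *Tead2* and *Tead4* in the adult (about 45.0 and 64.5 fragments), rest on few fragments.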
